A study of Mus musculus with 15 samples.

Results

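MSN500 is the label of a bare mesoporous silica particle of 500 nm nominal size, and the comparison described here sets 3 RNA sequencing libraries of RAW264.7 cells given MSN500 against 3 libraries of control cells. These 6 of the 15 libraries of the study were taken by their group labels, and the response was read across the 12798 genes, of 13342 in the count table, that passed a filter on low counts. RAW264.7 cells are mouse macrophages immortalised by the Abelson leukemia virus. All cells, controls included, were grown in RPMI medium with 10% fetal bovine serum at passages 6 to 14, and the RNA had integrity numbers of 8 to 10. Stober500, nonporous silica of 500 nm, and MSN-PEG500, the mesoporous particle coated with polyethylene glycol, have 3 libraries each and are used below. The 3 libraries of Stober50, a nonporous particle of 50 nm, enter the shared fit and the plot of group means. The dosage labels name a fraction of the LC50, a lethal concentration, and do not say whether their values are the concentrations used. The values are 111.8 µg/ml for MSN500, 84 µg/ml for MSN-PEG500, 16.8 µg/ml for Stober500 and 13.1 µg/ml for Stober50. How long the cells were exposed is uncertain, with 24 h in the treatment protocol but 4 h in that for extraction. No label ties the replicate libraries to separate cultures, and each p-value therefore rests on a spread between libraries that may be technical. In bulk RNA, fewer cells of a type and less RNA per cell cannot be told apart.

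Macrophages take particles into phagosomes, which fuse with lysosomes, the acid compartments where cargo is broken down. The transcription factors TFEB, TFE3, MITF and TFEC bind E-boxes in the promoters of many lysosomal genes, the best known being the CLEAR element, and their place in the cell is set by Rag GTPases and the kinase mTORC1 at the lysosomal surface. Silica is known in macrophages for damage to the lysosomal membrane and for release of cytokines.

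The promoters of 5 genes that were higher with MSN500 are shown to give these E-boxes in their sequence context. Each is the 250 bases before the annotated start, from RefSeq on GRCm38.p6, read 5′ to 3′ on the strand of the gene. Capitals mark the CLEAR core (TCACGTGA, which reads the same on both strands) and the M-box (TCATGTGA, searched on both strands), which shares its flanks with the CLEAR core, so that no site is both. The windows are chrX:134601006-134601255 (minus strand) for Gla, chr7:142387828-142388077 (minus) for Ctsd, chr8:3500269-3500518 (plus) for Mcoln1, chr9:22130599-22130848 (minus) for Acp5 and chr4:130308488-130308737 (plus) for Fabp3.
Gla: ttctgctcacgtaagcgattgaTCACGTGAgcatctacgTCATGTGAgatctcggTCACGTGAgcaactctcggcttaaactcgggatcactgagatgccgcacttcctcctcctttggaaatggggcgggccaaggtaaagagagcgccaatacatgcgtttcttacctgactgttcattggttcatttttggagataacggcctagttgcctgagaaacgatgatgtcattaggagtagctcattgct
Ctsd: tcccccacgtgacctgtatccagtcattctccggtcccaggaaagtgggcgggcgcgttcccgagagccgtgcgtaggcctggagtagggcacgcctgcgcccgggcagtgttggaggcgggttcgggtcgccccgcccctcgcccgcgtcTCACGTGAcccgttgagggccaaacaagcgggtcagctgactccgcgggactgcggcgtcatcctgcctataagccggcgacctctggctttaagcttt
Mcoln1: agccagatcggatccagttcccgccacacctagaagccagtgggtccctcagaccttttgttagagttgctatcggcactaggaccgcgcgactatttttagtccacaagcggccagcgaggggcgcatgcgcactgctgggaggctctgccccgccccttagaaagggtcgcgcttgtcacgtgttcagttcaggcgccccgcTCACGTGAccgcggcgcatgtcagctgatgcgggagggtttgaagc
Acp5: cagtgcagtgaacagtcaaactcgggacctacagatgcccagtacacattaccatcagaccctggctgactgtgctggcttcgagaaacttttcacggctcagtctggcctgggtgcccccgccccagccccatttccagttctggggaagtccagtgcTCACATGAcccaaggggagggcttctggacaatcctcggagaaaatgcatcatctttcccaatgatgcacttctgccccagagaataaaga
Fabp3: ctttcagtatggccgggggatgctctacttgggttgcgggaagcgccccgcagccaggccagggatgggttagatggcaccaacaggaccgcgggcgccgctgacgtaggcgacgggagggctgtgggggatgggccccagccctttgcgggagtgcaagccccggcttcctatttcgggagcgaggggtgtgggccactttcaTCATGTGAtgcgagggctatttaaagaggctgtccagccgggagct
Gla, which encodes alpha-galactosidase, held 2 CLEAR cores and 1 M-box. A CLEAR core began 99 bases before the start of Ctsd (cathepsin D) and 46 bases before that of Mcoln1, a lysosomal calcium channel gene. An M-box began 91 bases before the start of Acp5 (tartrate-resistant acid phosphatase) and 46 bases before that of Fabp3, a fatty acid binding protein gene.

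Promoter windows of 300 bases, from 250 before to 50 after a start, were at hand for 8970 of the tested genes. The CLEAR core occurred in 2.22% of these genes, in 3.52% of the 2072 that were higher in MSN500 and in 1.62% of the 2035 that were lower. The M-box occurred in 0.936% of all, in 1.98% of the higher and in 0.295% of the lower genes. Of 95 lysosomal genes with a window, 10 (10.5%) held the CLEAR core and 9 (9.47%) the M-box. An antioxidant response core (TGACNNNGC, both strands) was in 9 of 23 NRF2 genes (39.1%) and in 17.3% of all genes. A sterol regulatory element (TCACNCCAC, both strands) was in 1 of 19 cholesterol genes (5.26%) and in 1.42% of all, and a metal response core (TGCNCNC, both strands) in 14 of 17 metallothionein and zinc transport genes (82.4%) and in 63.8% of all. These shares describe letters and were not tested.

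MSN500 moved a large share of the transcriptome by small amounts and a smaller set of genes by 2-fold or more. Levels are given as CPM, counts scaled to a common library total after adjustment of the totals by TMM, the trimmed mean method of edgeR. Calls needed an adjusted p (Benjamini-Hochberg) under 0.05 in edgeR's two-sided quasi-likelihood test, fitted to all 15 libraries and adjusted over all genes tested, and every adjusted p below is from this test. Of 12798 genes 5488 (42.9%) were called, 2769 (21.6%) higher and 2719 (21.2%) lower in MSN500, and 79.4% of the called genes changed by under 1.5-fold. Every count of called list members against control given below is to be read beside these shares over all genes. At least 2-fold changes were found for 444 genes (3.47%), 262 higher (2.05%) and 182 lower (1.42%), and at least 4-fold changes for 58 higher and 16 lower genes. The authors' deposited table lists 192 genes past a score of 20 and a log2 ratio of 1 for this comparison, 153 of them higher in MSN500. All 192 were among the 444, of which they make up 43.2%. The thresholds differ, since a score of 20 is a stricter cut than an adjusted p of 0.05. The authors' ratios can also be smaller in size than the changes fitted here, as for Olr1 (1.27 for control over MSN500, against -1.51 for MSN500 over control).

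The 6 libraries held 19216971 to 23263294 counts, so that the limit a count of 0 allows (3 counts, for counting error only) lay at 0.126 to 0.16 CPM. On the first principal component of these libraries, with 66.7% of their variance, control lay from -24.37 to -22.2 and MSN500 from 22.14 to 24.68. Lyz2, the macrophage lysozyme gene, was at 10363, 9753 and 10228 CPM in control and 10009, 10197 and 9781 CPM in MSN500 (adjusted p = 0.751). Of the markers of other cell types, 1 of 8 lymphocyte genes (Lck, 5.49 to 6.89 CPM over the 6 libraries), 1 of 8 granulocyte, mast cell and erythroid genes (S100a8, 0.708 to 1.3 CPM), 1 of 8 fibroblast and endothelial genes (Pdgfrb) and 2 of 6 dendritic cell genes (Zbtb46 and Itgax) passed the filter on low counts. Pdgfrb was at 0.883, 1.51 and 1.82 CPM in control and 0.374, 0.976 and 0.664 CPM in MSN500 and was called lower, a call lost without control replicate 3. The integrin gene Itgax, which macrophages express too, rose from 7.65, 7.48 and 9.35 to 15.9, 16.4 and 15.9 CPM. None of 5 epithelial genes was in the count table, and the part of other cells in the results was not tested.

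**Figure D1:**
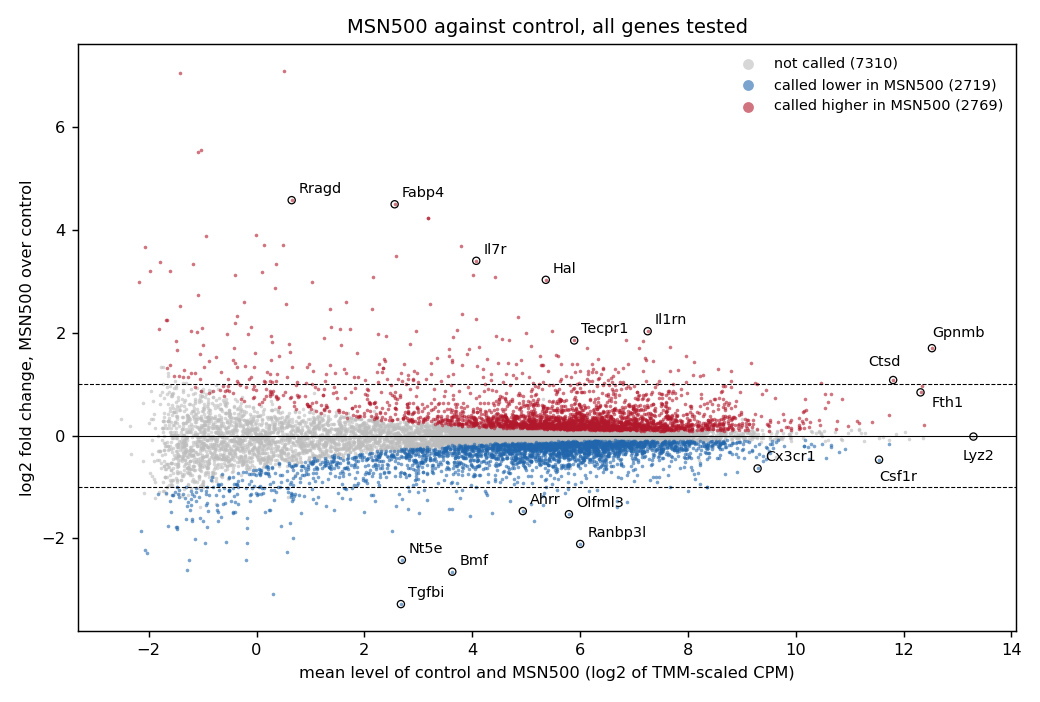
Log2 fold change of MSN500 over control for each of the 12798 genes tested (vertical axis) against the log2 of mean CPM (horizontal axis), with genes called higher in red, called lower in blue and not called in grey. Red and blue points are about as many (2769 and 2719, or 2413 and 3084 with upper quartile scaling) and most lie within 2-fold, and among the genes labelled in the plot Rragd (4.58) and Fabp4 (4.5) rose most and Tgfbi (-3.28) fell most.

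Most regulators of lysosome biogenesis were higher with MSN500. Of 22, 16 were higher and 2 lower, with a median log2 change of 0.34 against 0.00 for all genes tested. Rragd, a Rag GTPase gene on chromosome 4 at 32983037 to 33022180 (plus strand, GRCm38), had 2, 4 and 2 counts in the control libraries and 55, 66 and 69 in MSN500. The ratio, scaled for library size, was 25 (exact 95% interval 12.4 to 58.8), for counting error only, and the fitted log2 change was 4.58 ± 0.33 (SE, adjusted p = 7.17e-12). Rragd was thus close to its detection limit in every control library and well above it in each MSN500 library. Its relative Rragc rose from 143, 147 and 143 to 258, 244 and 264 CPM. Fnip2, which encodes a partner of folliculin in the control of those GTPases, was at 83.2, 75.3 and 79.8 CPM in control and 226, 211 and 226 CPM in MSN500 (log2 change 1.47 ± 0.07, adjusted p = 4.19e-12). The libraries of the groups did not overlap for these genes, as for 52.8% of all genes tested.

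The factor genes themselves moved little. Tfeb had a log2 change of 0.37 ± 0.07 and Tfec of 0.42 ± 0.08. Mitf (-0.16 ± 0.05, adjusted p = 0.00648) and the kinase gene Mtor (-0.17 ± 0.05, adjusted p = 0.00806) were the members called lower, and without control replicate 2 neither kept its call, nor did Mitf without MSN500 replicate 1. Tfe3 was at 162 to 171 CPM in control and 163 to 171 CPM in MSN500 (adjusted p = 0.966). Gpnmb, a glycoprotein gene that these factors are known to activate, had the largest gain in CPM of all genes, from 2679, 2825 and 2838 to 8842, 8914 and 9295 CPM. The 8 largest gains, those of Gpnmb, Ctsb, Fth1, Ctsd, Ctnnb1, Hspa5, Psap and Lgals3, made up 18.8% of all CPM gained, a ranking of reads that also grows with gene length.

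The vacuolar ATPase pumps protons into the lysosome, and 16 of its 19 measured subunit genes were higher, with a median log2 change of 0.59. Summed over subunits, the level was 2899 to 2956 CPM in control and 4567 to 4634 CPM in MSN500. Atp6v0c (-0.24 ± 0.09, adjusted p = 0.0352) and Atp6v0e2 (-0.22 ± 0.05, adjusted p = 0.000551) were called lower, of which 1 call was left without control replicate 1 or 3 or MSN500 replicate 1 or 2. Atp6v1d, of the central stalk, was at 47.5, 45.8 and 47.5 CPM in control and 114, 106 and 112 CPM in MSN500 (log2 change 1.23 ± 0.04, adjusted p = 5.45e-18). Atp6v1c1, of the peripheral part, rose from 189, 184 and 180 to 420, 396 and 418 CPM, and Atp6v1h, a regulatory subunit gene, by 0.74 ± 0.05 on the log2 scale. The subunit gene Atp6v0d2, known from osteoclasts, had the largest change of the list, from 1.93, 1.9 and 2.22 to 23.6, 26.9 and 26.8 CPM. Genes of the V1 and the V0 domain were among those that rose.

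Proteases and hydrolases of the lysosome were mostly higher too. Of 16 cathepsin and cystatin genes 10 were higher and 3 lower (Ctsc, Ctsf and Ctsh). Ctsb, the cathepsin B gene, was at 3487, 3521 and 3522 CPM in control and 6878, 6846 and 6880 CPM in MSN500 (log2 change 0.97 ± 0.04, adjusted p = 2.69e-17). It shares 12.8% of its exonic bases with Fdft1 on the opposite strand, and no source here states whether reads were counted by strand. Ctsd rose from 2312, 2295 and 2282 to 4851, 4850 and 4910 CPM and shares 34.4% of its exonic bases with Gm49369. Ctsk, a collagen-degrading cathepsin gene, rose from 7.48, 6.6 and 8.04 to 23.3, 22.7 and 24.5 CPM (log2 change 1.68 ± 0.09), the largest change of this list. Ctsz rose by 0.71 ± 0.04, Ctss by 0.31 ± 0.04 and Ctsl by 0.29 ± 0.04, with 26.8% of the exonic bases of Ctsl shared with Gm47123. Ctsh, an aminopeptidase gene, fell by 0.76 ± 0.10 (adjusted p = 2.71e-05).

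Of 39 hydrolase genes 27 were higher and 3 lower (Gm2a, Ids and Man2b1). Gla had the largest change, from 63.1, 55.8 and 56.8 to 146, 140 and 143 CPM (log2 change 1.29 ± 0.05, adjusted p = 4.03e-17). Psap, the precursor of the saposins that present lipids to hydrolases, rose from 1337, 1448 and 1409 to 2244, 2340 and 2340 CPM. The hexosaminidase gene Hexa rose by 0.57 ± 0.04 and Acp5 by 0.56 ± 0.12. The beta-galactosidase gene Glb1 was not called (-0.09 ± 0.05, adjusted p = 0.158) but was called lower without control replicate 1. Among 24 lysosomal membrane protein genes 15 were higher and 2 lower (Scarb2 and Tpcn1), or 4 lower with upper quartile scaling. The transporter gene Slc15a3 (0.93 ± 0.05), which shares 28.1% of its exonic bases with Tmem132a, and the chloride exchanger gene Clcn7 (0.86 ± 0.05) led this list. Mcoln1 rose from 37.6, 41.1 and 42.9 to 60.3, 57.5 and 62.9 CPM and the cholesterol transporter gene Npc1 from 96.8, 92.6 and 94.8 to 148, 136 and 150 CPM.

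Galectins and the ESCRT complexes mark and repair torn membranes, and 16 of 28 such genes were higher and 0 lower, with 0 lower at an unadjusted p under 0.05 and 0 lower by DESeq2 and by limma-voom. Lgals3, the galectin 3 gene, rose from 1048, 1215 and 1276 to 1980, 2111 and 2086 CPM and Lgals8 by 0.49 ± 0.05 on the log2 scale. The 39 autophagy genes did not move one way, with 12 higher, 15 lower and a median log2 change of -0.04. Tecpr1, whose protein acts in the fusion of autophagosomes with lysosomes, was at 25.5, 25 and 26.8 CPM in control and 93.6, 95.6 and 89.6 CPM in MSN500 (log2 change 1.85 ± 0.06, adjusted p = 4.83e-18). The cargo receptor gene Sqstm1 rose by 1.03 ± 0.04 and shares 17.3% of its exonic bases with Mrnip. Optn, another cargo receptor gene, had 5, 1 and 6 counts in control and 19, 14 and 17 in MSN500, a ratio of 4.39 (exact 95% interval 2.3 to 9.05). The ATG8-family genes Map1lc3b and Gabarapl1 rose by 0.33 ± 0.05 and 0.17 ± 0.05.

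**Figure D2:**
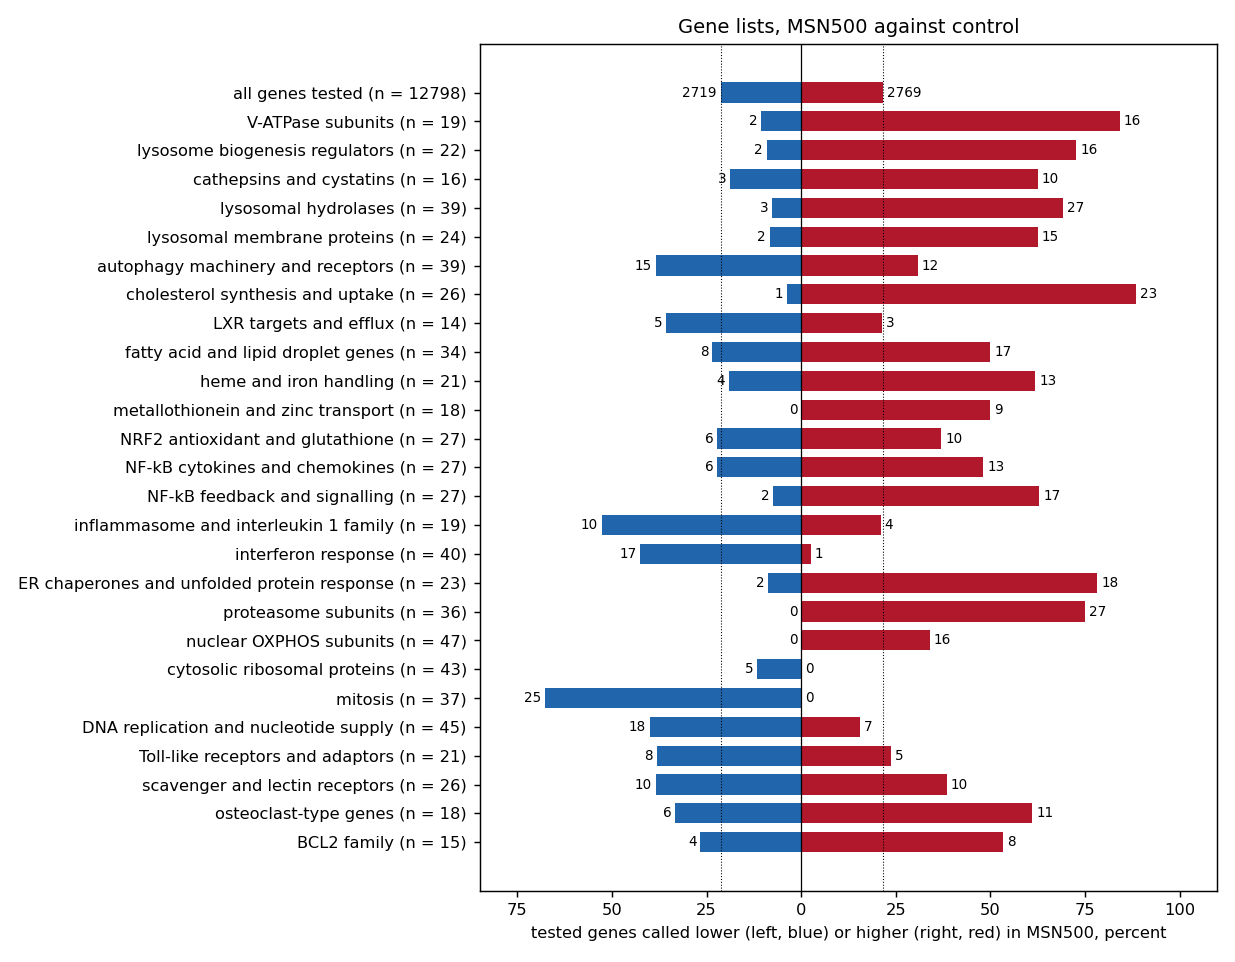
Share of the tested genes of each list shown that were called lower (blue, left) or higher (red, right) in MSN500 against control, in percent. Dotted lines are at the shares over all genes tested, and the lists shown are a selection of those described. The bars of proton pump and cholesterol genes reach far to the right of the dotted line (16 of 19 and 23 of 26 higher). Those of mitosis, inflammasome and interferon genes, among others, reach to the left (25 of 37, 10 of 19 and 17 of 40 lower).

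Genes of cholesterol synthesis and uptake had the highest median log2 change of the lists, 0.72. Of 26, 23 were higher, and Mylip, which encodes a ubiquitin ligase that LXR induces, was the member called lower (-0.64 ± 0.12). Summed over the list, the level was 2183 to 2227 CPM in control and 3495 to 3550 CPM in MSN500. Mvd, the mevalonate decarboxylase gene, was at 44.5, 48.4 and 47.1 CPM in control and 102, 93.5 and 97.4 CPM in MSN500 (log2 change 1.06 ± 0.06, adjusted p = 1.13e-14). Sc5d, of a late desaturation step, rose from 33.3, 30.9 and 32.3 to 66.5, 66.8 and 68.3 CPM. The squalene epoxidase gene Sqle rose by 0.73 ± 0.04 and Insig1, whose product retains the sterol sensor, by 0.81 ± 0.05.

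Genes of the LXR list, which holds targets of this sterol receptor, efflux genes and the receptor genes Nr1h2 and Nr1h3, moved in both directions. Of 14, 3 were higher (Fasn, Plin2 and the receptor gene Nr1h3) and 5 lower (Abca1, Abcg1, Apoe, Mylip and Smpdl3a), against 21.6% and 21.2% of all genes tested. In a fit with the replicate number as a block, 5 were higher. Abcg1, a cholesterol efflux gene, was at 44.7, 54.2 and 54.1 CPM in control and 31.9, 37.8 and 33 CPM in MSN500 (log2 change -0.57 ± 0.09, adjusted p = 3.09e-05). The change of Abca1, another efflux gene, was -0.25 ± 0.08 (adjusted p = 0.0138), a call lost without control replicate 2, control replicate 3 or MSN500 replicate 1. Of 34 fatty acid and lipid droplet genes 17 were higher and 8 lower, and the 3 largest changes were of fatty acid binding protein genes. Fabp5 rose from 43.7, 43.4 and 41.6 to 118, 120 and 120 CPM (log2 change 1.48 ± 0.05, adjusted p = 2.9e-18) and Fabp4 from 0.42, 0.576 and 0.506 to 10.6, 10.6 and 12.8 CPM. Fabp3 had 14, 9 and 10 counts in control and 37, 34 and 49 in MSN500, a ratio of 3.83 (exact 95% interval 2.59 to 5.81), and shares 9.84% of its exonic bases with Zcchc17. The lipid droplet coat gene Plin2 rose from 139, 148 and 138 to 238, 238 and 256 CPM, while Angptl4, whose product inhibits lipoprotein lipase, fell by 0.58 ± 0.12.

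Of 21 heme and iron genes 13 were higher and 4 lower (Fbxl5, Hfe, Ireb2 and Slc25a37). Hmox1, the heme oxygenase gene, was at 125, 135 and 134 CPM in control and 317, 306 and 335 CPM in MSN500 (log2 change 1.28 ± 0.05, adjusted p = 3.07e-16). The ferritin genes, for iron storage, rose together, Fth1 from 3858, 3515 and 3585 to 6749, 6218 and 6635 CPM and Ftl1 from 1201, 1211 and 1225 to 1914, 1835 and 1952 CPM. The value of Ftl1 is uncertain, since it shares 26.5% of its exonic bases with Gm10252 and 8.13% with Gm22133. Slc11a1, a metal transporter gene of the phagosome, rose by 0.40 ± 0.05, and the transferrin receptor gene Tfrc was not called (0.33 ± 0.13, adjusted p = 0.0714). Of 18 metallothionein and zinc transport genes 9 were higher and 0 lower, with 0 lower at an unadjusted p under 0.05 and 0 by DESeq2 and by limma-voom. The zinc exporter gene Slc30a1 rose from 28.5, 25.9 and 25 to 38.4, 41.3 and 40.6 CPM and the importer gene Slc39a8 had 22, 23 and 12 counts in control and 32, 34 and 31 in MSN500.

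Of 27 antioxidant genes of the NRF2 list 10 were higher and 6 lower, with a median log2 change of 0.08. Over all genes tested, 21.6% were higher and 21.2% lower. Slc7a11, the cystine importer gene, rose from 71.5, 56.3 and 58.5 to 130, 109 and 132 CPM (log2 change 0.99 ± 0.11, adjusted p = 1.65e-05). Srxn1 and Txnrd1, whose products reduce peroxiredoxin and thioredoxin, rose by 0.53 ± 0.04 and 0.46 ± 0.04. Gclc, the catalytic subunit gene of the first enzyme of glutathione synthesis, fell from 241, 236 and 241 to 176, 184 and 181 CPM, while its modifier Gclm rose by 0.24 ± 0.05. In the NADPH oxidase complex, which makes superoxide, Cyba rose by 0.39 ± 0.05 and Ncf1 fell by 0.42 ± 0.04.

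Of 27 NF-kB cytokine and chemokine genes 13 were higher and 6 lower, 8 of the higher ones and 2 of the lower ones (Cxcl14 and Il10) by at least 2-fold. Cxcl14, a chemokine gene, fell from 415, 445 and 452 to 206, 223 and 221 CPM and Il10, the gene of an anti-inflammatory cytokine, from 6.85, 6.64 and 5.91 to 1.71, 3.16 and 3.06 CPM. Ccl3, a macrophage chemokine gene, was at 193, 140 and 168 CPM in control and 345, 416 and 380 CPM in MSN500 (log2 change 1.18 ± 0.14, adjusted p = 3.07e-05). The related chemokine gene Ccl4 rose from 67.8, 58.3 and 59.9 to 129, 164 and 144 CPM. Csf3, a granulocyte growth factor gene, had 1, 1 and 1 counts in control and 13, 5 and 15 in MSN500, a ratio of 11.6 (exact 95% interval 3.63 to 59). Ccl3, Ccl4 and Csf3 were higher in each MSN500 library than in any control library. Over all genes tested, the groups did not overlap, in either direction, for 52.8%. The chemokine genes Ccl5 and Ccl9 were not called (adjusted p = 0.249 and 0.322), nor was Ptgs2 (-0.05 ± 0.16, adjusted p = 0.836).

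Of 27 NF-kB feedback and signalling genes 17 were higher and 2 lower (Birc2 and Tnip3), with a median log2 change of 0.39. The count of lower genes was 0 or 1 when any single library was left out, and 1 by DESeq2 and with no filter on low counts. Tnfaip3, the gene of the ubiquitin editor A20, was at 22.6, 19.7 and 22.4 CPM in control and 49.3, 59.6 and 58.2 CPM in MSN500 (log2 change 1.37 ± 0.14, adjusted p = 3.58e-06). The inhibitor gene Nfkbia had a change of 0.39 ± 0.12 (adjusted p = 0.0214), a call lost without control replicate 1 or MSN500 replicate 2. Within the inflammasome and interleukin 1 list of 19, 4 genes were higher (Il1rn, P2rx4, Casp4 and Nlrp3) and 10 lower. Il1rn, the interleukin 1 receptor antagonist gene on chromosome 2 at 24336853 to 24351494 (plus strand, GRCm38), rose from 61.5, 55.3 and 64.2 to 242, 238 and 256 CPM (log2 change 2.03 ± 0.09, adjusted p = 5.01e-11). The sensor gene Nlrp3 rose by 0.21 ± 0.06, and the pyrin gene Mefv had 20, 27 and 23 counts in control and 10, 12 and 8 in MSN500.

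Interferon response genes lay lower. Of 40, 17 were lower and Usp18 was the member called higher (2 were without MSN500 replicate 2), with a median log2 change of -0.23. Irf7, a factor that amplifies interferon, was at 71, 80.9 and 76.7 CPM in control and 54.6, 56.6 and 60.2 CPM in MSN500 (log2 change -0.41 ± 0.11, adjusted p = 0.0103). Irf1, another factor of the pathway, fell by 0.59 ± 0.09 and Oas2 by 0.53 ± 0.10. Ifit1 (-0.32 ± 0.15, adjusted p = 0.0958) and Ifit2 (-0.15 ± 0.09, adjusted p = 0.2) were not called, though Ifit1 was without MSN500 replicate 1. Of 21 Toll-like receptor and adaptor genes 8 were lower and 5 higher (Irak2, Ly96, Ticam1, Tlr2 and Traf6), against 21.2% and 21.6% of all genes tested. The lipopolysaccharide receptor gene Tlr4 fell from 147, 152 and 149 to 95.5, 109 and 106 CPM. Among the endosomal sensors of nucleic acid, Tlr8 fell from 34.6, 36.8 and 36.4 to 16.7, 19.6 and 19.2 CPM (log2 change -0.95 ± 0.06, adjusted p = 2.65e-12) and Tlr9 by 0.76 ± 0.09.

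**Figure D3:**
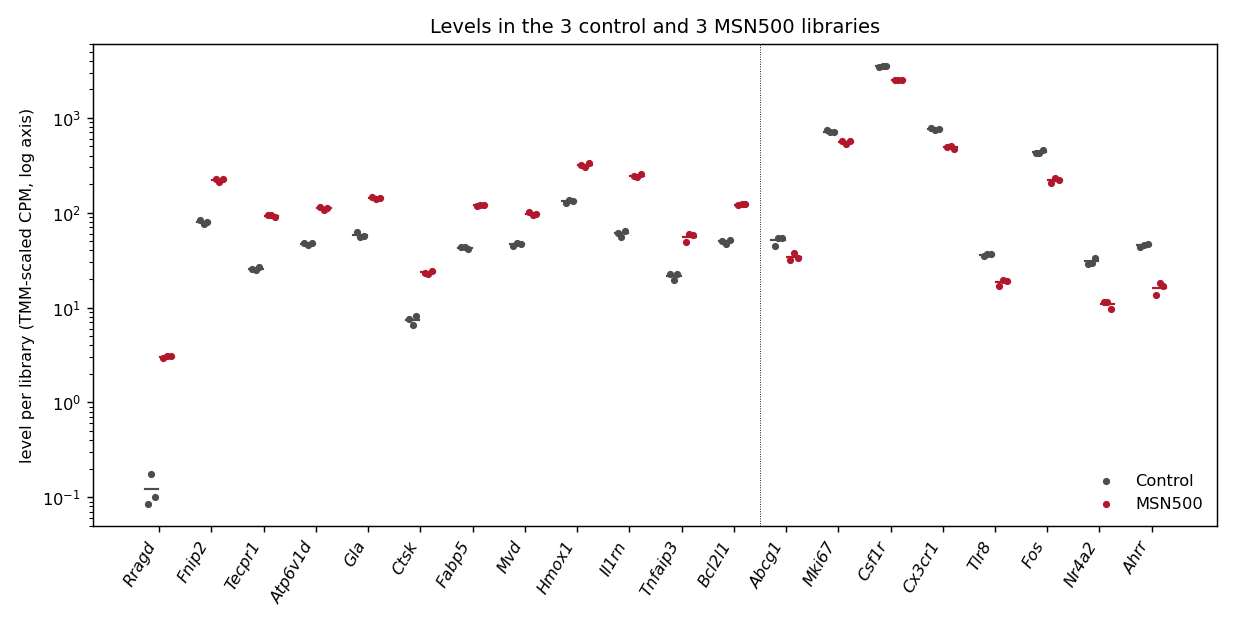
Level of 20 named genes in each library (vertical axis, TMM-scaled CPM on a log axis), control in grey and MSN500 in red. The genes were chosen from those named in the text, by rules that favour called and large changes and, for the largest, ask for libraries that do not overlap. Separation of the points thus follows in part from the choice. For each of these 20 genes the 3 red points lie apart from the 3 grey points, as for 52.8% of all genes tested, by most for Rragd (2.94 to 3.07 against 0.0841 to 0.177 CPM).

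Macrophage markers moved in both directions. Of 10, 3 were higher (Cd68, Mrc1 and Fcgr3) and 4 lower (Csf1r, Adgre1, Itgam and Ptprc), and their summed level was 17123 to 17697 CPM in control and 16273 to 16841 CPM in MSN500. Csf1r, the gene of the receptor for the macrophage growth factor, had the largest loss in CPM of all genes, from 3406, 3496 and 3525 to 2497, 2525 and 2485 CPM (log2 change -0.47 ± 0.04, adjusted p = 1.31e-10), and shares 15.1% of its exonic bases with Hmgxb3. Adgre1, the F4/80 antigen gene, fell by 0.32 ± 0.04, and Cd68 rose by 0.47 ± 0.05. Fcgr3 lost its call without control replicate 1, MSN500 replicate 2 or MSN500 replicate 3, with the 6 libraries alone and with upper quartile scaling, and Ptprc without MSN500 replicate 3. Spi1, the PU.1 gene, was not called (adjusted p = 0.85), and Irf8 rose by 0.44 ± 0.06. The repressor gene Bhlhe40 rose from 41.9, 43.9 and 46 to 98.7, 111 and 111 CPM.

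Of 25 AP-1 and immediate early factor genes 8 were higher and 8 lower, with 5 higher without MSN500 replicate 2. Fos fell from 426, 430 and 459 to 203, 233 and 221 CPM (log2 change -1.0 ± 0.08, adjusted p = 5.67e-08), and Nr4a2, an orphan nuclear receptor gene, from 29.1, 29.6 and 33.1 to 11.4, 11.4 and 9.66 CPM. The stress factor gene Atf3 rose from 312, 266 and 290 to 420, 491 and 524 CPM and the small MAF gene Maff by 1.2 ± 0.13, so members of this class moved in opposite directions. Jun was not called (-0.04 ± 0.10, adjusted p = 0.789). The aryl hydrocarbon receptor gene Ahr fell from 4.25, 4.03 and 4.3 to 1.5, 2.23 and 1.64 CPM. Ahrr, its repressor on chromosome 13 at 74211118 to 74292331 (minus strand, GRCm38), fell from 43.2, 45.7 and 46.3 to 13.7, 18.2 and 16.7 CPM (log2 change -1.47 ± 0.07, adjusted p = 1.05e-14).

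Of 15 chemoattractant receptor genes 3 were higher (Ccrl2, Cxcr4 and P2ry2) and 5 lower, against 21.6% and 21.2% of all genes tested. Among the lower ones were C5ar1, Cx3cr1, P2ry12 and P2ry6. Cx3cr1, the fractalkine receptor gene, fell from 776, 742 and 770 to 490, 509 and 472 CPM (log2 change -0.64 ± 0.04, adjusted p = 2.25e-12). P2ry2, a receptor gene for ATP and UTP, rose from 5.93, 7.31 and 6.42 to 18.4, 17.7 and 18.3 CPM (log2 change 1.47 ± 0.08, adjusted p = 7.54e-14). Of 26 scavenger and lectin receptor genes 10 were higher and 10 lower. The lectin gene Clec4e rose from 372, 334 and 370 to 638, 651 and 641 CPM, and Olr1, the gene of a receptor for oxidised LDL, fell from 13.2, 11 and 11.6 to 2.99, 4.42 and 5.01 CPM (log2 change -1.51 ± 0.13, adjusted p = 7.87e-10).

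Of 18 osteoclast-type genes 11 were higher and 6 lower, and Atp6v0d2, Ctsk and Clcn7 of this list are also counted above. The fusion gene Dcstamp rose from 3.11, 3.63 and 3.39 to 7.37, 7.3 and 7.13 CPM, while its counterpart Ocstamp fell from 2.06, 2.04 and 2.43 to 0.641, 0.929 and 1.33 CPM. Nfatc1, the gene of the factor that drives osteoclast formation, fell from 152, 140 and 149 to 88.9, 81.4 and 89.5 CPM (log2 change -0.76 ± 0.05, adjusted p = 3.45e-12). Of 31 TGF-beta and matrix genes 15 were higher and 8 lower, and the urokinase gene Plau rose from 358, 292 and 296 to 842, 806 and 871 CPM. Among prostaglandin genes, the cyclooxygenase gene Ptgs1 fell from 207, 215 and 206 to 118, 123 and 120 CPM and the degrading enzyme gene Hpgd by 0.95 ± 0.12, while the synthase gene Hpgds rose by 0.81 ± 0.06 and the prostacyclin receptor gene Ptgir by 1.32 ± 0.16.

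Genes of protein folding and turnover rose by small amounts. Of 23 ER chaperone and unfolded protein response genes 18 were higher and 2 lower (Atf6 and Xbp1), with a median log2 change of 0.32, and the call of Xbp1 was lost without control replicate 3. Hspa5, the chaperone BiP, rose from 3067, 2852 and 2859 to 3814, 3853 and 3918 CPM. Of 36 proteasome genes 27 were higher and 0 lower, with 0 lower at an unadjusted p under 0.05 and 0 by DESeq2 and by limma-voom. The count of higher genes was 17 without control replicate 3, 16 without MSN500 replicate 1 and 17 with upper quartile scaling. Their median log2 change was 0.13, and the largest changes were those of Psmb6, a catalytic subunit gene, from 233, 221 and 224 to 381, 377 and 375 CPM (log2 change 0.74 ± 0.04, adjusted p = 6.51e-15), and Psmd8, of the regulatory particle, from 273, 275 and 270 to 438, 450 and 446 CPM. Of 20 heat shock genes 9 were higher and 3 lower (Hspa1b, Hspa4l and Hsph1), and the call of Hsph1 was lost when any single library was left out and with no filter on low counts.

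Of 47 nuclear genes of the respiratory chain 16 were higher, or 9 without MSN500 replicate 1, and 0 lower. At an unadjusted p under 0.05, 1 was lower, and DESeq2 and limma-voom called 0 lower, but 1 was called lower with the 6 libraries alone, without control replicate 2 and without MSN500 replicate 3. The largest change called was that of Ndufs8 (0.35 ± 0.05). Of 9 mitochondrially encoded genes 0 were called by edgeR, DESeq2 or limma-voom and 0 had an unadjusted p under 0.05. Of 31 glycolysis and hypoxia genes 10 were higher, or 6 without MSN500 replicate 2, and 2 lower, or 1 without control replicate 2 or 3 or MSN500 replicate 1 or 3. The share called was 38.7% of these genes and 34.0% of the nuclear respiratory chain genes, against 42.9% of all genes tested. Hk3, a hexokinase gene, rose from 78.1, 87.7 and 90 to 195, 213 and 199 CPM (log2 change 1.25 ± 0.05, adjusted p = 7.87e-16) and the glucose transporter gene Slc2a1 by 0.63 ± 0.09.

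Mitosis genes fell by small amounts. Of 37, 25 were lower and 0 higher, with a median log2 change of -0.20, with 0 higher at an unadjusted p under 0.05 and 0 by DESeq2 and by limma-voom. Mki67, the proliferation marker gene, was at 738, 701 and 708 CPM in control and 570, 527 and 570 CPM in MSN500 (log2 change -0.36 ± 0.05, adjusted p = 1.17e-06). Cenpf, of the kinetochore, fell from 165, 155 and 147 to 116, 109 and 111 CPM, and the cyclin gene Ccnb1 was not called (-0.07 ± 0.05, adjusted p = 0.276). Of 45 genes of DNA replication and nucleotide supply 18 were lower and 7 higher, or 4 higher without MSN500 replicate 1 or with upper quartile scaling. The thymidine kinase gene Tk1 fell from 130, 136 and 135 to 89.8, 91.7 and 84.1 CPM and the polymerase gene Pole by 0.50 ± 0.04, while the ribonucleotide reductase gene Rrm2 was not called (adjusted p = 0.212).

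Of 15 BCL2 family genes 8 were higher and 4 lower (Bmf, Bcl2l11, Pmaip1 and Bbc3), against 21.6% and 21.2% of all genes tested. The lower ones all encode BH3-only proteins, which promote cell death, as does the product of Bax, a gene called higher. The call of Bbc3 was lost without control replicate 2 or 3 or any 1 of the MSN500 libraries. Bcl2l1, the gene of the protective BCL-XL, was at 50.7, 46.9 and 51.6 CPM in control and 119, 122 and 124 CPM in MSN500 (log2 change 1.3 ± 0.06, adjusted p = 4.77e-14). Bcl2l11, the BIM gene, fell from 34, 33.6 and 33.3 to 22.2, 23.3 and 24.3 CPM. Of 24 p53 target genes 11 were lower and 4 higher (Bax, Mdm2, Plk2 and Tigar). The cell cycle inhibitor gene Cdkn1a fell from 325, 345 and 335 to 255, 242 and 254 CPM, while the kinase gene Plk2 rose from 79.8, 50.7 and 62.5 to 188, 219 and 220 CPM.

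Some of the largest changes lay outside these lists. Hvcn1, a proton channel gene, rose from 0.967, 0.841 and 1.01 to 8.55, 7.2 and 8.15 CPM but shares 44.2% of its exonic bases with Tctn1, so its value is uncertain. Cd200r4, a CD200 receptor family gene, rose from 2.9, 2.88 and 2.22 to 16.1, 14.6 and 16.9 CPM. Ranbp3l, on chromosome 15 at 8968426 to 9066551 (plus strand, GRCm38), fell from 115, 95.8 and 102 to 22.6, 25 and 24.8 CPM (log2 change -2.11 ± 0.09, adjusted p = 8.02e-13). Olfml3, an olfactomedin-like gene, fell from 83.6, 83.5 and 80.1 to 28.6, 28.8 and 28 CPM. Ctnnb1, the beta-catenin gene, rose from 903, 955 and 937 to 1851, 1869 and 1959 CPM and shares 14.6% of its exonic bases with Ulk4. The groups did not overlap in any of these genes, as in 52.8% of all genes tested. For the largest changes this was part of the rule by which they were named.

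Counts for classes of noncoding genes are set beside the shares of 21.6% higher and 21.2% lower over all genes tested. Of 178 long intergenic RNA genes 44 were lower and 9 higher, and of 166 processed transcripts 41 were lower and 11 higher, against 2533 lower and 2679 higher of 11240 protein-coding genes. Of 108 small nucleolar RNA genes 22 (20.4%) were lower, near the 21.2% of all genes tested. None was higher, with 0 higher at an unadjusted p under 0.05 and 0 by DESeq2 and by limma-voom. Such genes can lie within others, as Snord21 shares 94 exonic bases with Rpl5, and their reads can come from those genes. Of 101 miRNA genes 6 were lower and 6 higher, and of 566 processed pseudogenes, whose reads can come from their parent genes, 8 were lower and 29 higher. Log2 changes over all genes had a rank correlation of -0.111 with exonic length, a value across genes and not across replicates, and the part of length in these counts was not tested.

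MSN500 was set against Stober500, nonporous silica of the same nominal size, with labelled dosages that differ. Of 12798 genes 5045 (39.4%) differed, 2550 (19.9%) higher and 2495 (19.5%) lower in MSN500, and 401 (3.13%) by at least 2-fold, 235 (1.84%) higher and 166 (1.30%) lower. This comparison shares the MSN500 libraries with that against control. Of 19 proton pump genes 17 were higher than with Stober500 and 1 lower, and of 26 cholesterol genes 23 were higher and 1 lower. Atp6v1d was at 50.7 ± 0.27 CPM with Stober500 and 110 ± 4.17 CPM with MSN500 (SD, n = 3 each; log2 difference 1.12 ± 0.04 and adjusted p = 2.61e-17 in edgeR). Hmox1 was at 146 ± 13.3 CPM with Stober500 and 319 ± 14.6 CPM with MSN500 (log2 difference 1.13 ± 0.05, adjusted p = 3.45e-15). Of 37 mitosis genes 24 were lower in MSN500.

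MSN-PEG500 gave levels closer to those with MSN500, again at labelled dosages that differ. Of 12798 genes 1027 (8.02%) differed, 502 (3.92%) higher and 525 (4.10%) lower in MSN500, and 11 (0.0860%) by at least 2-fold, 4 (0.0313%) higher and 7 (0.0547%) lower. Most of the 11 had low levels. The 4 higher genes lay at 0.47 to 1.15 CPM in MSN500, and the lower ones other than Olr1 at 2.81 CPM or less with MSN-PEG500. The count of genes called was 420 without MSN500 replicate 1, 650 without MSN500 replicate 2, 606 without MSN500 replicate 3 and 615 without MSN-PEG500 replicate 3. Of 22 lysosome biogenesis regulators 0 were higher, with 5 at an unadjusted p under 0.05 and 0 by DESeq2 and limma-voom, but 1 with the 6 libraries alone, with the replicate block and without any one of the MSN-PEG500 libraries. Mitf was lower (-0.24 ± 0.05). Rragd was at 2.28 ± 0.693 CPM with MSN-PEG500 and 3.02 ± 0.0713 CPM with MSN500 (log2 difference 0.41 ± 0.18, edgeR adjusted p = 0.164), and Gpnmb at 8562 ± 214 and 9017 ± 243 CPM (0.07 ± 0.05, adjusted p = 0.448). A p that misses the threshold does not show that these levels are the same.

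Cholesterol genes had the largest called share of any list against MSN-PEG500. Of 26, 21 were higher in MSN500 and 0 lower, with a median log2 difference of 0.31. At an unadjusted p under 0.05, 1 was lower, DESeq2 called 1 lower and limma-voom 0, and 1 was called lower with the replicate block and without MSN500 replicate 2. Mvd was at 69.5 ± 1.52 CPM with MSN-PEG500 and 97.5 ± 4.12 CPM with MSN500 (log2 difference 0.49 ± 0.05, edgeR adjusted p = 2.98e-06). The efflux genes went the other way. Abca1 was at 44.6 ± 4.0 CPM in control, 66.8 ± 1.79 CPM with MSN-PEG500 and 37.5 ± 2.51 CPM with MSN500 (log2 difference between the particles -0.83 ± 0.08, edgeR adjusted p = 1.44e-06). Abcg1 was at 53.5 ± 2.31 CPM with MSN-PEG500 and 34.2 ± 3.14 CPM with MSN500 (-0.64 ± 0.09, adjusted p = 0.00023). Of 47 respiratory chain genes 16 were higher in MSN500, a count of 4 without MSN500 replicate 1, 6 without MSN500 replicate 2, 5 without MSN-PEG500 replicate 3 and 10 with the 6 libraries alone.

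Several genes that fell against control were also lower with MSN500 than with MSN-PEG500. Olr1 was at 12 ± 1.16 CPM in control, 8.76 ± 0.659 CPM with MSN-PEG500 and 4.14 ± 1.03 CPM with MSN500 (log2 difference between the particles -1.07 ± 0.14, edgeR adjusted p = 4.32e-05). Olfml3 was at 40.2 ± 1.96 CPM with MSN-PEG500 and 28.5 ± 0.379 CPM with MSN500 (-0.50 ± 0.07, adjusted p = 4.7e-05), and Tlr8 at 23.7 ± 0.399 and 18.5 ± 1.6 CPM (-0.35 ± 0.07, adjusted p = 0.00241). Of the 5488 genes called against control, 776 (14.1%) were also called against MSN-PEG500, in either direction, against 8.02% of all genes tested. Both comparisons use the MSN500 libraries, and how many of the 776 kept their direction was not counted.

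**Figure D4:**
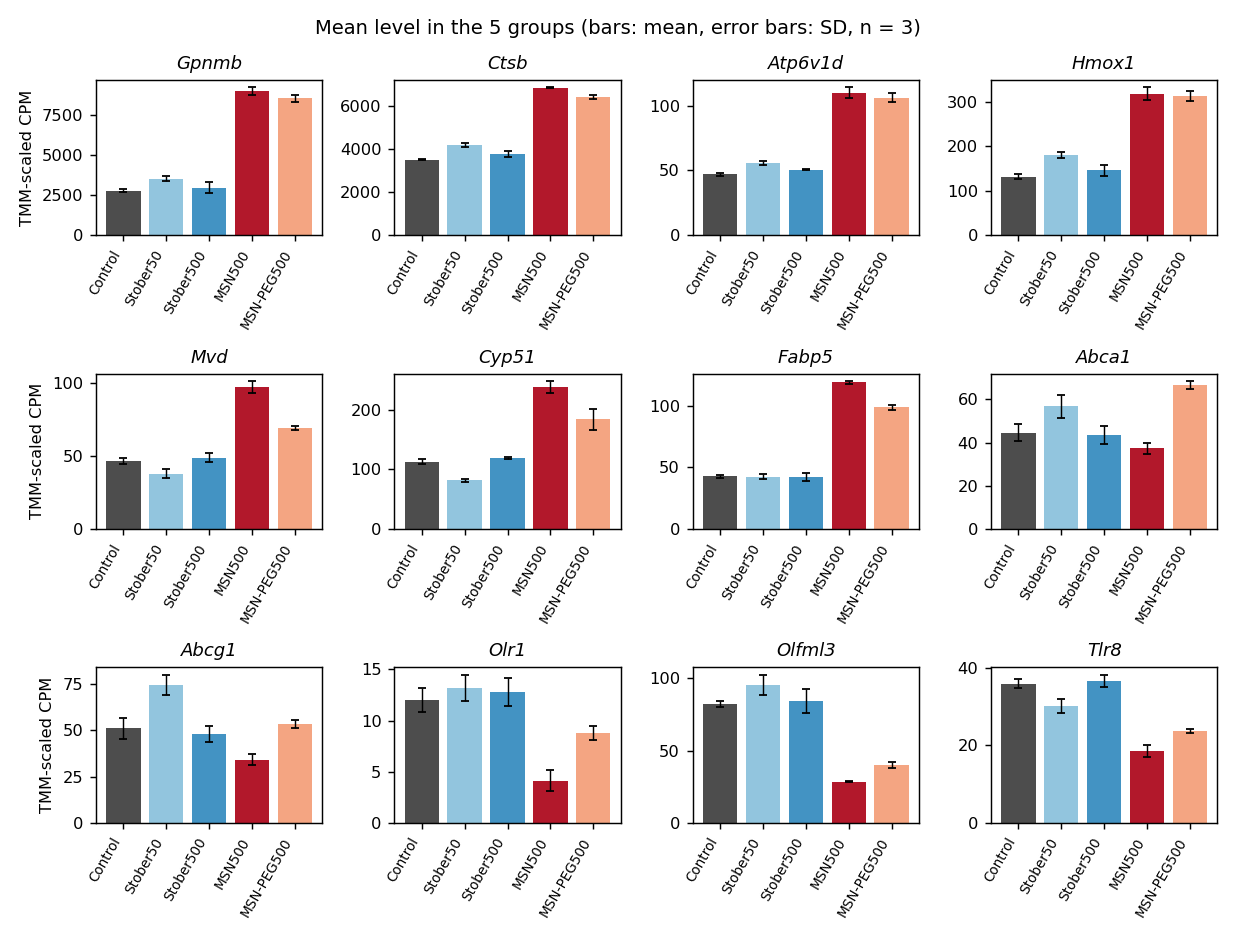
Mean level of 12 named genes in the 5 groups of the study (vertical axes, TMM-scaled CPM from 0), with error bars of 1 SD over 3 libraries. The mesoporous particles stand apart from the other groups for Gpnmb, Ctsb, Atp6v1d and Hmox1, whereas Abca1 is at 37.5 CPM with MSN500 against 66.8 CPM with MSN-PEG500. Labelled dosages also differ, with 111.8 and 84 µg/ml for the mesoporous particles and 13.1 and 16.8 µg/ml for Stober50 and Stober500.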

How the data were processed

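RNA of 15 libraries in 5 groups of 3 was measured by single-read sequencing. Raw counts per gene were deposited by the authors, with any alignment that overlaps a gene by at least 1 base counted, per the file headers. The authors' FPKM values (scaled by exon length and by mapped reads), their log2 ratios from DESeq2 and a score, -10 times the log10 of the adjusted p, were deposited beside them. Novoalign 2.08.03, DESeq2 and limma 3.28.21 are named per the submitters' processing notes, with GRCm38 and mm10 as builds. No source here states whether reads were counted by strand, and the regularized log values were not used.

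From the deposited counts, edgeR 4.0.16 in R 4.3.3 fitted group means to all 15 libraries (filterByExpr, TMM factors 0.974 to 1.02, robust quasi-likelihood F-test, two-sided, Benjamini-Hochberg over 12798 genes). DESeq2 1.42.0, limma-voom (limma 3.58.1), other scaling factors, no filter, the 6 libraries alone, the replicate number as a block and leaving out each library were tried. The test was tried on simulated data for the comparison with control over 12798 genes, with 50 genes changed at each fold and the same spread set for every gene. It called 56%, 80%, 92% and 98% of genes changed 1.2-, 1.5-, 2- and 4-fold, with 0.0794% false calls. Far fewer genes were changed there than were called in the data, so these shares are not the power or error rate of the calls reported.

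The comparison, its members and the gene lists were chosen with earlier results of these data known. Named genes were the 12 largest rises and falls at 5 CPM or more whose libraries do not overlap, preset core list members, the 3 largest called changes of each list and the 8 largest gains and losses in CPM. Members that make up a count of 5 or fewer were named after their values were seen. Some genes that meet these rules are not reported here. Gene coordinates are those of the deposited table, counted from 1.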

Additional observations from a re-analysis of the deposited data

How the results depend on the processing

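No alternative moved the count of genes called against control beyond 4825 to 5724 or that against Stober500 by over 1.5 times, and leaving out 1 library gave 4825 to 5166 and 4291 to 4962. Against MSN-PEG500, leaving out 1 library gave 420 to 1031 genes called, 184 to 578 higher, 236 to 453 lower and 3 to 19 at least 2-fold. DESeq2 gave 2 at least 2-fold, with no adjusted p for 2482 of the 12798 genes in that comparison. The cause of these shifts was not tested. Deviations of same-numbered MSN500 and control libraries had correlations of 0.058, 0.054 and 0.016, and those of differently numbered ones -0.075 to 0.024. These values cannot tell whether same-numbered libraries share a batch. With the replicate number as a block, 5633 genes were called against control, 5167 against Stober500 and 1246 against MSN-PEG500. Of 199 named genes, 172 kept direction and side of the threshold in every alternative. Among list members named by their count, Apoe lost its call without control replicate 1, MSN500 replicate 2 or MSN500 replicate 3, Bbc3 without any of 5 libraries (all but control replicate 1), Ireb2 without any of 5 (all but MSN500 replicate 2) and P2ry6 without control replicate 1 or 3 or MSN500 replicate 1 or 3. Tfrc was called by DESeq2, with the 6 libraries alone and with the block. Of genes not called, the log2 change turned sign when 1 library was left out for Jun (-0.09 to 0.01), Lck (-0.13 to 0.05), Lyz2 (-0.03 to 0.01), Ptgs2 (-0.18 to 0.05), S100a8 (-0.21 to 0.18), Spi1 (-0.07 to 0.03) and Tfe3 (-0.03 to 0.03), and without the filter for Spi1 (0.00) and Tfe3 (0.01). Low counts in control limit the precision for Rragd, Optn and Csf3.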

Other observations

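Some members of the autophagy list not described above are named here, chosen after their values were seen, and they stand for no step of the pathway as a whole. Called lower with MSN500 were the kinase gene Ulk1 (log2 change -0.59 ± 0.07), Atg2a (-0.58 ± 0.06), Atg9a (-0.42 ± 0.06), Wipi1 (-0.61 ± 0.14) and the lipid kinase gene Pik3c3 (-0.32 ± 0.04). Called higher were Atg7 (0.56 ± 0.05), Atg5 (0.33 ± 0.05), Atg3 (0.29 ± 0.04) and the ATG8-family gene Gabarap (0.45 ± 0.04). Ulk1 was at 24, 27.8 and 26.7 CPM in control and 17.3, 17 and 17.9 CPM in MSN500, and Atg7 at 62.5, 67.5 and 64.8 and 95.3, 98 and 93.9 CPM. The groups did not overlap in either gene, as in 52.8% of all genes tested.

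Other lists gave mixed counts of genes called higher and lower in MSN500 by edgeR. Over all genes tested, 21.6% were higher and 21.2% lower. Of 42 actin and phagocytic motility genes 18 were higher and 8 lower, of 25 cytokine and growth factor receptor genes 9 and 8, and of 16 eicosanoid genes 5 and 6. Of 15 nucleotide enzyme and receptor genes 4 were higher and 4 lower, of 24 macrophage transcription factor genes 8 and 6, and of 28 ATF4 target genes 9 and 8. Of 20 tRNA synthetase genes 6 were higher and 5 lower, of 32 ribosome biogenesis genes 6 and 5, and of 7 NADPH oxidase genes 1 and 2. The lower ribosome biogenesis genes were 3 without control replicate 2 or MSN500 replicate 3, and the higher NADPH oxidase genes 2 without control replicate 1 or 3 or MSN500 replicate 3 and by DESeq2, and 3 with no filter on low counts. MAP kinase feedback genes were higher in 7 of 18 and lower in 0, with 0 lower at an unadjusted p under 0.05 and 0 by DESeq2 and limma-voom, but 1 with the 6 libraries alone. Ribosomal protein genes, whose near-identical copies make their counts uncertain, were lower in 5 of 43 and higher in 0, with 1 higher at an unadjusted p under 0.05 and 0 by DESeq2 and limma-voom. Their higher count was 3 with the 6 libraries alone and 1 without control replicate 3, MSN500 replicate 2 or MSN500 replicate 3. Their lower count was 2 without MSN500 replicate 3, 3 without MSN500 replicate 1 and 8 with upper quartile scaling. Replication-dependent histone genes were higher in 2 of 6 and lower in 0, with 1 lower at an unadjusted p under 0.05 and 0 by DESeq2 and limma-voom. Of these, 1 was higher by DESeq2 and without MSN500 replicate 2, and 1 was lower with the replicate number as a block, without control replicate 1 and without MSN500 replicate 2.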
